A study of Rattus norvegicus with 42 samples.

Results

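The proteasome is the protease of the cytosol and nucleus that degrades proteins marked with ubiquitin. Its barrel-shaped 20S core has outer alpha rings, which form the gate, and inner beta rings, which hold the active sites. The 19S regulator binds ubiquitin chains, unfolds substrates with its ATPases and removes the ubiquitin. In lymphocytes, and elsewhere after interferon gamma, the catalytic subunits Psmb5, Psmb6 and Psmb7 are replaced in new particles by the immune subunits Psmb8, Psmb9 and Psmb10, and the PA28 activator made of Psme1 and Psme2 is induced. Such immunoproteasomes are known for cutting peptides that MHC class I can present. Blood also holds maturing red cells, which degrade much of their protein content through ubiquitin and the proteasome.

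Subunits were taken from the array by the symbols that start with Psma, Psmb, Psmc, Psmd or Psme. This gave 55 probe sets with 1 symbol, which stand for 41 genes, among 31042 probe sets tested. For the 9 genes with several probe sets the one of highest mean over the 42 arrays was kept. Of the 41 genes, 39 encode parts of the proteasome, its activators or its assembly chaperones. They are 7 alpha subunits, 6 standard beta subunits, the 3 immune subunits, 6 regulator ATPases, 14 regulator non-ATPases and 3 activators. The non-ATPase class follows the gene names and includes the assembly chaperones Psmd5, Psmd9 and Psmd10, which are counted here among the 39 subunits. The other 2 share only the prefix: Psmc3ip, a partner of meiotic recombinases, had a mean of 2.86 and was not above the dim range, and Psme3ip1, a partner of the activator Psme3, had a mean of 6.66. Neither passed a threshold in any of the 10 comparisons. Psmb6 and Psme3 lie only on probe sets that carry the symbols of other genes as well, and 6 such probe sets were set aside, so neither has a value here. Means of the 39 subunits ran between 6.07 and 11.9 on the log2 scale, and none was dim (mean under log2 4).

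Whole blood was drawn at 24 h from 42 male Sprague-Dawley rats of 280 to 350 g, whose mean age was a few months by the methods. They formed 7 groups of 6. The reperfused-MCAO+tPA and reperfused-MCAO groups had a suture in the right middle cerebral artery for 2 h. In the permanent-MCAO+tPA and permanent-MCAO groups it stayed for the whole 24 h. The tPA group received the drug without occlusion, the anesthesia group had anesthesia (isoflurane in the methods) without occlusion or drug, and the naive group had none of these before sampling. Recombinant human tPA was given into the peritoneum at 3.3 mg/kg, 3 h after occlusion. By the methods all animals were under isoflurane when blood was drawn by cardiac puncture. Whether rats given the drug alone were also anesthetised at dosing is not stated, and the fit over 42 arrays coded them as anesthetised.

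Levels are the authors' GC-RMA log2 signals, and where 3 levels are given for a group they are its lowest, median and highest rat. A subunit is called where p was at most 0.05 (42 arrays) or at most 0.01 (smaller comparisons) with a fold of at least 1.2, the thresholds of the methods. Adjusted p values are Benjamini-Hochberg values from limma over all 31042 probe sets. The array controls and the markers of red cells and T cells set the tPA group apart from the anesthesia group. Each of them overlapped between tPA rats and permanent-MCAO+tPA rats. The mean of the 14 hybridization control probe sets ran between 9.72 and 11.7 in tPA rats and between 11.8 and 12.4 in anesthesia rats. It was 11.4 to 12.4 in the other groups, and tPA rats 2 and 3 were lowest with 9.72 and 11.1. The mean of the 10 erythroid markers ran between 8.57 and 10.9 in tPA rats and between 11.2 and 12.05 in anesthesia rats, while that of the 10 T cell markers ran between 10.3 and 10.7 in tPA rats and between 9.40 and 9.86 in anesthesia rats. Of the measured blood cell markers, Ncf1, Cx3cr1 and Ms4a7 were dim and the rest were not. In whole blood, a change in the share of a cell type and a change of RNA within the cells cannot be told apart.

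Of the comparisons between a pair of groups, tPA rats against anesthesia rats (tPA without MCAO) gave the most calls. There 16 of 39 subunits (41.0%) were called, 11 higher and 5 lower, and 14 passed the adjusted threshold. The share called was 13.7% over all probe sets (9.15% higher and 4.59% lower), with 12.5% past the adjusted threshold. Of the 13232 that were not dim 28.7% were called (2490 higher and 1301 lower), and 3222 passed the adjusted threshold. The subunits called higher included the immune subunit Psmb9 and the activators Psme1 and Psme2. Those called lower were all of the non-ATPase class of the regulator. The control level and the erythroid and T cell means did not overlap between these groups either, and their part in the calls cannot be told apart from that of tPA. Across the 7 groups the extremes lay in a pair of tPA-treated groups. The group mean was highest in the tPA group for 21 of the 39 subunits and in the anesthesia group for 10. It was lowest in the permanent-MCAO+tPA group for 20 and in the tPA group for 6. These orders are a description without a test, and they were not counted over all probe sets. In tPA without MCAO 23 of the 39 subunits had a positive difference, against 9375 of the 13232 probe sets not dim.

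**Figure D1:**
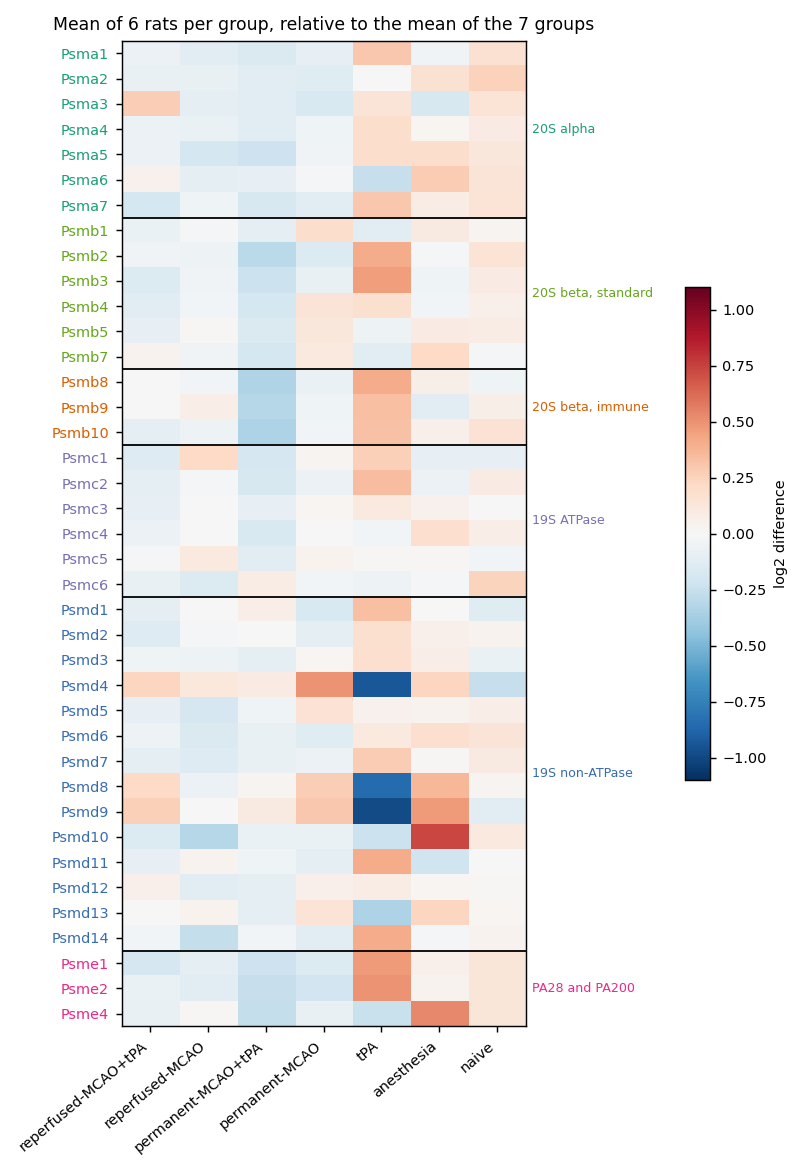
Mean log2 signal of each of the 39 subunits (rows, by class) in the 7 groups of 6 rats (columns), relative to the mean of the 7 group means of that gene. Red cells are above and blue cells below that mean. The tPA column is highest for 21 subunits, yet lowest for Psmd4, Psmd8, Psmd9, Psmd13, Psma6 and Psmb1, and Psmd10 is highest in the anesthesia column.

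The immune subunit Psmb9 and both PA28 subunits were called higher in tPA rats than in anesthesia rats, Psmb8 was called less firmly, and the standard subunits Psmb5 and Psmb7 were not called. Psmb9 rose by 0.45 log2 (SE 0.0994, adjusted p = 0.0192, limma), Psme2 by 0.46 (SE 0.101, adjusted p = 0.0189) and Psme1 by 0.41 (SE 0.0938, adjusted p = 0.0219). Psmb8 passed the study thresholds with a difference of 0.35 (SE 0.109) but missed the adjusted one (adjusted p = 0.0595), and lost the call in 15 of 20 alternatives, among them the replicate block, median centring and leaving out any 1 of 9 rats. Psmb10 differed by 0.27 without being called (adjusted p = 0.108). With the control level as a covariate none of the 4 called genes was called, at differences of 0.11 for Psmb8, 0.38 for Psmb9, 0.27 for Psme1 and 0.19 for Psme2.

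Psmb8, which takes the place of the chymotrypsin-like subunit Psmb5, read 10.88, 11.08 and 11.46 in tPA rats, 10.64, 10.76 and 11.03 in anesthesia rats and 10.04, 10.72 and 11.23 in naive rats. It read 10.20, 10.84 and 11.09 in reperfused-MCAO+tPA rats and 10.24, 10.69 and 11.07 in reperfused-MCAO rats, and 9.76, 10.36 and 11.04 in permanent-MCAO+tPA rats and 9.95, 10.69 and 11.04 in permanent-MCAO rats. The tPA rats were the highest group by median, and every pair of groups overlapped. Psmb9, the counterpart of the caspase-like subunit Psmb6, read 9.34, 9.62 and 9.79 in tPA rats, 8.91, 9.15 and 9.41 in anesthesia rats and 9.05, 9.32 and 9.80 in naive rats. Under MCAO Psmb9 read 8.72, 9.40 and 9.45 in reperfused-MCAO+tPA rats, 8.92, 9.30 and 9.75 in reperfused-MCAO rats, 8.44, 9.01 and 9.41 in permanent-MCAO+tPA rats and 8.99, 9.23 and 9.46 in permanent-MCAO rats. The lowest tPA rat lay below the highest anesthesia rat, so the groups overlapped. Psmb10, the counterpart of the trypsin-like subunit Psmb7, read 8.83, 9.03 and 9.13 in tPA rats, 8.34, 8.77 and 9.04 in anesthesia rats and 8.48, 8.86 and 9.30 in naive rats. Its MCAO values were 8.09, 8.64 and 8.95 in reperfused-MCAO+tPA rats, 8.25, 8.66 and 9.01 in reperfused-MCAO rats, 7.43, 8.50 and 8.93 in permanent-MCAO+tPA rats and 8.44, 8.68 and 8.87 in permanent-MCAO rats. Psmb10 had its narrowest spread in tPA rats (9.01 ± 0.102, mean and SD, n = 6) and its widest in permanent-MCAO+tPA rats (8.35 ± 0.549, n = 6).

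Psme1 and Psme2 form the ring that caps the core in immune cells. Psme1 read 12.15, 12.44 and 12.65 in tPA rats, 11.83, 11.98 and 12.27 in anesthesia rats and 11.84, 12.01 and 12.57 in naive rats. After MCAO it read 11.39, 11.77 and 12.05 in reperfused-MCAO+tPA rats, 11.44, 11.93 and 12.17 in reperfused-MCAO rats, 11.18, 11.84 and 12.15 in permanent-MCAO+tPA rats and 11.44, 11.88 and 11.99 in permanent-MCAO rats. All tPA rats were above all reperfused-MCAO+tPA and permanent-MCAO rats, and they overlapped with the other groups. Psme2 read 11.14, 11.32 and 11.79 in tPA rats, 10.73, 10.94 and 11.04 in anesthesia rats and 10.80, 10.98 and 11.31 in naive rats. Among MCAO rats Psme2 read 10.53, 10.80 and 11.10 in reperfused-MCAO+tPA rats, 10.32, 10.82 and 11.01 in reperfused-MCAO rats, 10.03, 10.77 and 10.95 in permanent-MCAO+tPA rats and 10.39, 10.73 and 10.81 in permanent-MCAO rats. For Psme2 all 6 tPA rats were above all 6 anesthesia rats and all rats of the 4 MCAO groups, with overlap with naive rats alone. Values without overlap that were higher in tPA than in anesthesia rats were found for 3.32% of all probe sets, and for 896 of the 13232 not dim.

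The standard subunits that the immune ones replace lay on the other side of 0 or near it. Psmb5 read 8.95, 9.27 and 9.44 in tPA rats, 9.05, 9.44 and 9.68 in anesthesia rats and 9.19, 9.33 and 9.65 in naive rats. In rats with MCAO Psmb5 read 8.99, 9.19 and 9.39 in reperfused-MCAO+tPA rats, 9.21, 9.28 and 9.43 in reperfused-MCAO rats, 8.79, 9.21 and 9.38 in permanent-MCAO+tPA rats and 9.06, 9.43 and 9.67 in permanent-MCAO rats. Its difference in tPA without MCAO was -0.15 (SE 0.123, adjusted p = 0.408). Psmb7 read 10.06, 10.47 and 10.59 in tPA rats, 10.31, 10.83 and 10.95 in anesthesia rats and 10.34, 10.52 and 10.67 in naive rats. With MCAO it read 10.46, 10.55 and 10.66 in reperfused-MCAO+tPA rats, 10.37, 10.51 and 10.54 in reperfused-MCAO rats, 10.04, 10.33 and 10.65 in permanent-MCAO+tPA rats and 10.28, 10.62 and 11.05 in permanent-MCAO rats. Its difference in tPA without MCAO was -0.35 (SE 0.121, adjusted p = 0.0797), which was not called. The difference between the immune and the standard subunits was itself not tested.

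**Figure D2:**
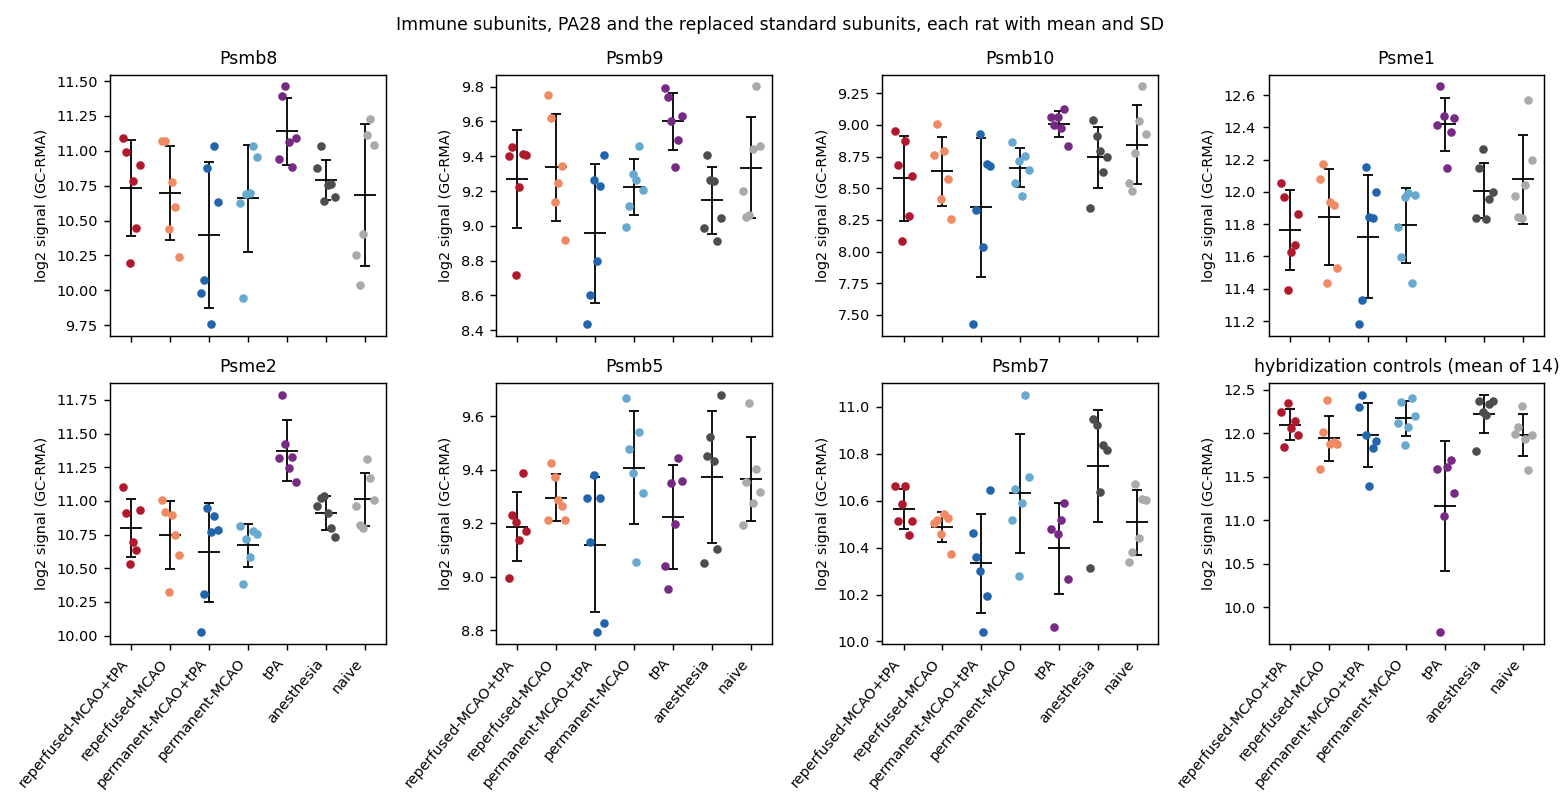
Log2 signal (vertical axes, a scale per panel) of the immune subunits, PA28 and 2 standard subunits in each rat of the 7 groups, with the group mean and SD (n = 6). The last panel gives the mean of the 14 hybridization control probe sets. The tPA rats are the highest group for Psmb8, Psmb9, Psmb10, Psme1 and Psme2 and the lowest for the controls.

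The immune subunits varied together from rat to rat. With group means removed over 42 arrays, Pearson's r was 0.75 for Psmb8 and Psmb9, 0.72 for Psmb8 and Psmb10 and 0.74 for Psmb9 and Psmb10. Spearman's rho was 0.74, 0.74 and 0.71 (adjusted permutation p = 5e-05 for each), and the permutation p adjusted over the 5 relations that could be run was 2.5e-05, 3.33e-05 and 2.5e-05 for r (two-sided, within groups; 1e-05 is the smallest unadjusted p the draws can give). Without the 2 arrays farthest from the median of the first gene, r was 0.76, 0.73 and 0.66 for these pairs. After removal of the control level it was 0.72, 0.73 and 0.75. For Psmb8 and Psmb5, which it replaces, r was 0.0046 and rho -0.055 (adjusted permutation p = 0.979 and 0.75), with r = 0.02 without 2 arrays. For Psmb10 and Psmb7, r was 0.30 and rho 0.35 (adjusted permutation p = 0.0855 and 0.0358), with r = 0.46 without 2 arrays, and removal of the control level brought r to 0.44 (adjusted permutation p = 0.00849). The relation of Psmb9 with Psmb6 was not run, since Psmb6 has no probe set of its own.

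Since the immune subunits and PA28 are known targets of interferon gamma, the sequences at their starts are shown. They come from RefSeq on the GRCr8 rat assembly, 250 bases before to 50 after the start of the gene, and 35 of the 39 subunits have an entry. Psma7, Psmd6, Psmd12 and Psmd14 have none. Capitals mark matches, on either strand, to GAAA followed by any 2 bases and GAAA, a short form of the interferon-stimulated response element. The sequences lie at chr20:4656982-4657281 (minus strand, Psmb8), chr20:4668750-4669049 (plus strand, Psmb9), chr19:50743243-50743542 (minus strand, Psmb10), chr15:33038721-33039020 (plus strand, Psme1) and chr15:33052702-33053001 (minus strand, Psme2).
Psmb8: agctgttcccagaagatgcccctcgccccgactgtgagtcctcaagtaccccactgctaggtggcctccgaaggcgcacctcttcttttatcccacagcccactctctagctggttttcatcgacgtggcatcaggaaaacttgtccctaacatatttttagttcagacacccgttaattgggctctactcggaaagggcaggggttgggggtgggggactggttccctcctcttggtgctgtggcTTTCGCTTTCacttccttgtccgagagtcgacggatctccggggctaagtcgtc
Psmb9: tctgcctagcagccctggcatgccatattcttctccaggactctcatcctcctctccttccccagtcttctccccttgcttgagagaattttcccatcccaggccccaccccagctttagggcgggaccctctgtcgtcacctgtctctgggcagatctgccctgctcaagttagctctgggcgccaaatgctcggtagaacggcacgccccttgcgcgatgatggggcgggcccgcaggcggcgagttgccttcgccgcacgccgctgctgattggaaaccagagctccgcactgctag
Psmb10: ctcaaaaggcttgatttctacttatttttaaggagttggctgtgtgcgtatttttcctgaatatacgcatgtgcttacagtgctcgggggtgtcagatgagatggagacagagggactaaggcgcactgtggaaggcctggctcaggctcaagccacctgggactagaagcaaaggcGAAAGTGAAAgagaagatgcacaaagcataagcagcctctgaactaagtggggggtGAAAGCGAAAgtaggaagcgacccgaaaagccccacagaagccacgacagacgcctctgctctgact
Psme1: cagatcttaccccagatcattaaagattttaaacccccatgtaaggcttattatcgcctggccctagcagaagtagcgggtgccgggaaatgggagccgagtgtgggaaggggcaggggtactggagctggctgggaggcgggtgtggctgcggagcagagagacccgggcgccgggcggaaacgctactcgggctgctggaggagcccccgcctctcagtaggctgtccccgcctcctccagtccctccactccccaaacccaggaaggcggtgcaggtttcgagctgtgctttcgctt
Psme2: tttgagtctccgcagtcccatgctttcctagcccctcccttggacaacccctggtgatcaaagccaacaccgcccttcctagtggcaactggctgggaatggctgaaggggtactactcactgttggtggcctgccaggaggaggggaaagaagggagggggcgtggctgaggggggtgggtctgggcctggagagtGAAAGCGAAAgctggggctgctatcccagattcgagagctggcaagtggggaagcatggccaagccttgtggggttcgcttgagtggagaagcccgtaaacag
The motif was found in the windows of Psmb8 (a match that begins 4 bases before the start), Psmb10 (73 and 17 bases before it) and Psme2 (53 bases before it), and in those of Psma4, Psmb3 and Psmd7. That is 6 of 35 subunits (17.1%), against 1312 of 33469 promoters in the whole table (3.92%). The windows of Psmb9 and Psme1 hold no full match. The Psme1 window ends in letters that begin like the match of Psmb8, so it cannot tell whether a match is cut off at its edge. Psmb9 starts 457 bases from Tap1, the peptide transporter of MHC class I loading, on the opposite strand, their windows share 44 bases, and the Tap1 window holds 1 match that begins 121 bases before the Tap1 start. TGACNNNGC, a short form of the antioxidant response element searched on both strands, was found in 7 of 35 subunits (20%) and in 12.1% of all promoters. No subunit window holds both motifs, so no matches overlap there. A match is a run of letters, not a binding site.

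Genes of the non-ATPase class of the 19S regulator showed the largest falls among the 39 in tPA rats. In tPA without MCAO, Psmd9 fell by 1.45 log2 (SE 0.332, adjusted p = 0.0221, limma), Psmd8 by 1.21 (SE 0.283, adjusted p = 0.0238) and Psmd4 by 1.17 (SE 0.32, adjusted p = 0.0386). Psmd10 fell by 0.97 (SE 0.175, adjusted p = 0.0107) and Psmd13 by 0.58 (SE 0.171, adjusted p = 0.0498). These 5 were the only ones of the 39 called lower, and Psmd13 lost the call in 11 of 20 alternatives. In the same class Psmd11 rose by 0.63 (SE 0.112, adjusted p = 0.0103), Psmd14 by 0.43 (adjusted p = 0.0287) and Psmd1 by 0.32 (adjusted p = 0.0645), so members of the regulator were called in both directions. Psmd1 lost the call in 17 of 20 alternatives. Psmd9 read 6.02, 6.83 and 7.52 in tPA rats and 7.11, 8.41 and 8.91 in anesthesia rats, with overlap. Psmd9 and Psmd10 encode chaperones that help to build the base and are not part of the finished regulator. Psmd4 is a ubiquitin receptor, Psmd8, Psmd11 and Psmd13 are subunits of the lid, Psmd14 is the enzyme that cuts ubiquitin chains off the substrate and Psmd1 is a scaffold of the base.

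Psmd8 read 8.84, 9.72 and 10.16 in tPA rats, 9.96, 10.99 and 11.47 in anesthesia rats and 10.03, 10.55 and 10.91 in naive rats. Under MCAO Psmd8 read 10.47, 10.74 and 11.02 in reperfused-MCAO+tPA rats, 10.19, 10.40 and 10.86 in reperfused-MCAO rats, 9.95, 10.40 and 11.37 in permanent-MCAO+tPA rats and 10.17, 10.83 and 11.11 in permanent-MCAO rats. The lowest value of Psmd8 was that of tPA rat 2, the array of lowest control level, and the lowest anesthesia value was that of rat 1, also the lowest of its group in control level and erythroid list. Psmd4 read 7.93, 8.90 and 9.28 in tPA rats, 8.79, 10.10 and 10.58 in anesthesia rats and 8.90, 9.43 and 9.93 in naive rats. After MCAO it read 9.12, 10.05 and 10.54 in reperfused-MCAO+tPA rats, 9.53, 9.74 and 10.33 in reperfused-MCAO rats, 8.75, 9.68 and 10.70 in permanent-MCAO+tPA rats and 9.57, 10.29 and 10.66 in permanent-MCAO rats. The tPA group was lowest by median, and it overlapped with the anesthesia group through anesthesia rat 1 alone. Psmd13 read 8.66, 8.84 and 9.19 in tPA rats, 8.76, 9.55 and 9.80 in anesthesia rats and 8.94, 9.21 and 9.50 in naive rats. Among MCAO rats Psmd13 read 9.07, 9.15 and 9.46 in reperfused-MCAO+tPA rats, 9.07, 9.25 and 9.56 in reperfused-MCAO rats, 8.51, 9.02 and 9.85 in permanent-MCAO+tPA rats and 9.02, 9.43 and 9.61 in permanent-MCAO rats. The lowest and the highest rat of the whole series for Psmd13 were both permanent-MCAO+tPA rats.

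Psmd10, also known as gankyrin, stood out in the anesthesia group instead. It read 6.99, 7.60 and 7.90 in tPA rats, 8.07, 8.63 and 8.78 in anesthesia rats and 7.57, 7.93 and 8.23 in naive rats. In rats with MCAO Psmd10 read 7.26, 7.60 and 8.05 in reperfused-MCAO+tPA rats, 7.20, 7.37 and 7.81 in reperfused-MCAO rats, 7.33, 7.79 and 8.003 in permanent-MCAO+tPA rats and 7.48, 7.57 and 8.14 in permanent-MCAO rats. All anesthesia rats were above all rats of the tPA, reperfused-MCAO, reperfused-MCAO+tPA and permanent-MCAO+tPA groups, and they overlapped with permanent-MCAO and naive rats. Each comparison that uses the anesthesia group called Psmd10. It was lower by 1.05 in reperfused-MCAO (SE 0.145, adjusted p = 0.0119, limma) and by 0.81 in permanent-MCAO (SE 0.157, adjusted p = 0.0789), and 0.63 higher in anesthesia than in naive rats (SE 0.156, adjusted p = 0.94). These comparisons share the same 6 anesthesia rats, so they are no separate evidence of one another. Between tPA and naive rats no test was run, and the means were 7.54 ± 0.331 and 7.88 ± 0.261 (SD, n = 6 each).

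**Figure D3:**
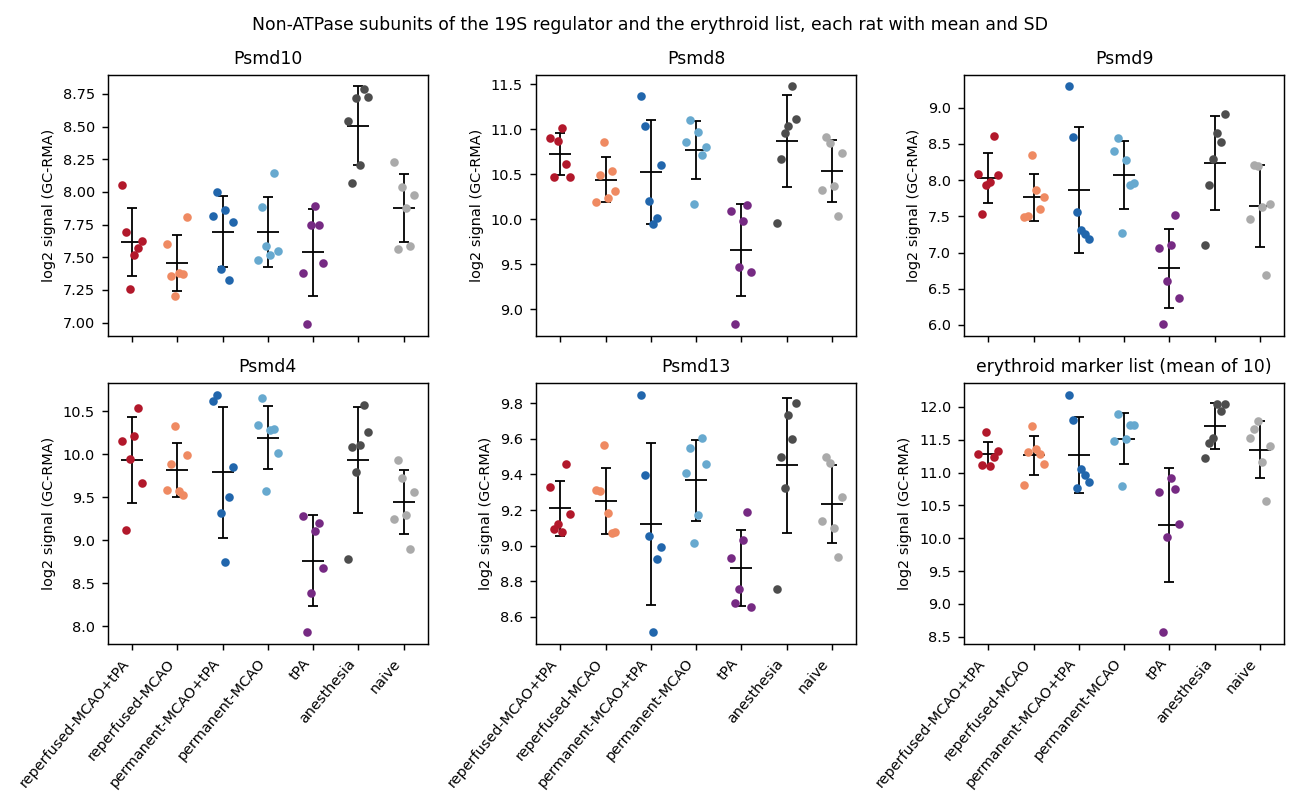
Log2 signal (vertical axes, a scale per panel) of 5 genes of the non-ATPase class of the 19S regulator in each rat, with the group mean and SD (n = 6), and the mean of the 10 erythroid markers in the last panel. Psmd8, Psmd9, Psmd4 and the erythroid mean have their lowest rat in the tPA group, and Psmd10 has its highest rat in the anesthesia group.

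The remaining calls in tPA without MCAO were in the core and the base. Psma1, an alpha ring subunit, rose by 0.34 (SE 0.0645, adjusted p = 0.0132, limma) and Psmc2, an ATPase of the base, by 0.41 (SE 0.0832, adjusted p = 0.0155). Psmb3 rose by 0.51 (adjusted p = 0.0353) and Psma3 by 0.32 (adjusted p = 0.0426), and the signal of Psmb3 may include some of its 10 named copies. Psma3 lost the call in 12 of 20 alternatives. Psma1 read 9.89, 10.02 and 10.17 in tPA rats and 9.44, 9.73 and 9.77 in anesthesia rats. Psmc2 read 9.999, 10.14 and 10.26 in tPA rats and 9.52, 9.72 and 9.94 in anesthesia rats. Psmd11 read 9.42, 9.52 and 10.003 in tPA rats and 8.66, 8.998 and 9.12 in anesthesia rats. In these 3 genes every tPA rat was above every anesthesia rat. For Psmd11 a second probe set that was not dim (mean 8.83) differed by -0.05, so its rise rests on 1 of its probe sets, whereas both other probe sets of Psmd14 moved up (0.44 and 0.31).

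By class, the tPA rats and the anesthesia rats differed by a median of 0.17 over the 13 core subunits without the immune ones, with 3 called higher and none lower. Over the 20 regulator subunits the median was 0.04, with 4 higher and 5 lower. For the 3 immune subunits it was 0.35, and for the 3 activators 0.41, with PA200, the nuclear activator Psme4, at -0.77 (adjusted p = 0.0649, not called). The other probe sets of Psme4 disagreed, at -0.85 and 0.27. The median over all probe sets was -0.01, and over those not dim 0.24, so the medians of core and regulator lay below that of the probe sets not dim. Groups did not overlap for 4 subunits that were higher and 2 that were lower in tPA rats, against 3.32% and 2.86% of all probe sets. Of the 13232 probe sets not dim, 896 were higher and 530 lower without overlap. The second lower one, Psma6, differed by -0.54 without being called (adjusted p = 0.0752), and has 5 named copies in the genome.

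The number of calls in tPA rats fell most with the control level in the fit. Between 12 and 16 subunits were called when each of the 12 rats was left out, and 14 without tPA rat 2. Without tPA rats 2 and 3, chosen after the values were seen, 11 were called, 10 of them among the 16, with Psmd8 (-0.96), Psmd10 (-0.89), Psmb9 (0.42), Psme1 (0.34) and Psme2 (0.35), while Psmb8, Psmb3, Psma3, Psmd1, Psmd4 and Psmd13 were lost. With the control level as a covariate 1 subunit was called, Psma1, and of all probe sets 803. The signs of the 16 were kept in that fit.

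Under MCAO few subunits were called with tPA. In reperfused-MCAO, 1 of 39 subunits was called, Psmc1, an ATPase of the base, which fell by 0.36 (SE 0.115, adjusted p = 0.542, limma), against 0.722% of all probe sets. Psmc1 read 8.19, 8.60 and 8.85 in reperfused-MCAO+tPA rats and 8.67, 8.93 and 9.11 in reperfused-MCAO rats, with overlap, and the call was lost when any 1 of 9 of the 12 rats was left out. In the other groups Psmc1 read 7.94, 8.66 and 8.86 in permanent-MCAO+tPA rats, 8.57, 8.70 and 8.91 in permanent-MCAO rats, 8.62, 8.96 and 9.20 in tPA rats, 8.14, 8.65 and 8.89 in anesthesia rats and 8.23, 8.60 and 8.91 in naive rats. In permanent-MCAO no subunit was called, against 0.322% of all probe sets, and 4 had an unadjusted p under 0.05, by limma. All 4 are standard beta subunits: Psmb1 (-0.29), Psmb4 (-0.33), Psmb5 (-0.29) and Psmb7 (-0.30), each with an adjusted p of 1. In this comparison 30 of 39 differences were negative (median -0.15, against 0.00102 over all probe sets), and in reperfused-MCAO 18 of 39 were (median 0.004). No probe set passed the adjusted threshold in either by limma, while 717 had an unadjusted p under 0.05 in permanent-MCAO and 2481 in reperfused-MCAO.

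The immune subunits and PA28 did not pass a threshold with tPA under MCAO. In reperfused-MCAO their differences were 0.04 for Psmb8, -0.07 for Psmb9, -0.05 for Psmb10, -0.08 for Psme1 and 0.05 for Psme2. In permanent-MCAO they were -0.26, -0.27, -0.31, -0.07 and -0.05 for the same genes in the same order. The SE of these values ran between 0.131 and 0.254. Between the 2 kinds of MCAO the tPA effect differed for none of the 39 subunits at the thresholds, against 0.296% of all probe sets called, and 1 subunit, Psmb7, had an unadjusted p under 0.05 (difference of effects 0.37, SE 0.139, adjusted p = 0.978, limma).

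**Figure D4:**
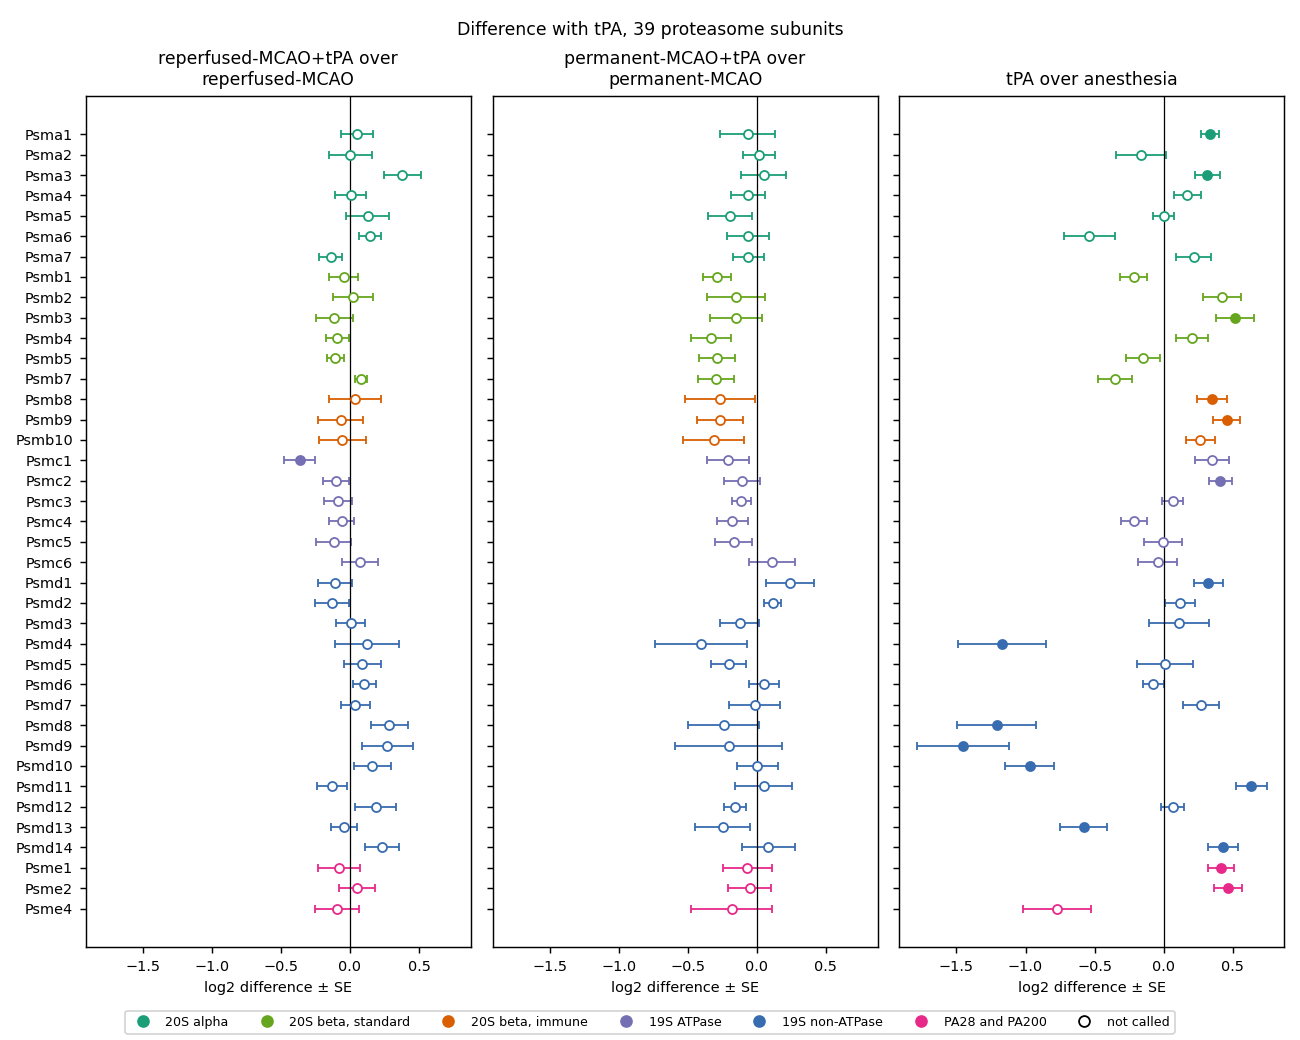
Log2 difference with its SE (horizontal axis) for each of the 39 subunits, coloured by class, in the 3 comparisons of tPA against no tPA, 6 rats against 6 in each. Filled points are called: 1 in reperfused-MCAO, none in permanent-MCAO and 16 without MCAO.

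The fit over 42 arrays tests whether the tPA effect differs with and without MCAO. In this interaction 19 of 39 subunits (48.7%) were called, 12 of them with a term below 0 and 7 above it, against 21.0% of all probe sets (14.4% below and 6.62% above) and 40.6% of those not dim. After adjustment 9 passed, against 9.47% of all probe sets. Psmd10 had a term of 1.05 (SE 0.193, adjusted p = 0.00245, limma), Psmd8 of 1.23 (SE 0.291, adjusted p = 0.00893) and Psmd9 of 1.49 (adjusted p = 0.0152). The alpha subunit Psma6 (0.58, adjusted p = 0.0264) was the other positive one. Negative terms were found for Psmc1 (-0.64, SE 0.165, adjusted p = 0.0143), Psmc2 (-0.51, SE 0.128, adjusted p = 0.0122), Psmd11 (-0.68, adjusted p = 0.0179), Psmb3 (-0.65, adjusted p = 0.0308) and Psmb9 (-0.62, adjusted p = 0.0384). Called without passing the adjusted threshold were Psme1, Psme2, Psmb10, Psmb2, Psmb4, Psma1 and Psma7 with terms below 0. Psmd4, Psmd13 and Psme4 were called in the same way with terms above 0. Psma1, Psmb10 and Psme4 lost the call in 24, 23 and 20 of 50 alternatives. With the control level as a covariate 3 subunits were called, and none after adjustment. The term rests on the same tPA and anesthesia arrays as the comparison without MCAO. For Psmd8, Psmd9 and Psma6 the tPA group had the lowest mean of the 7 groups, whereas for Psmd10 the anesthesia group was highest and the tPA mean (7.54 ± 0.331, SD, n = 6) lay among those of the MCAO groups.

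In the same fit, the tPA effect averaged over rats with and without MCAO was called for 9 subunits (23.1%), 3 higher and 6 lower, against 12% of all probe sets (6.91% higher and 5.05% lower) and 24% of those not dim, a share near that background. Lower were Psmd9 (-0.71, adjusted p = 0.0301, limma), Psmd4 (-0.66, SE 0.18, adjusted p = 0.03), Psmd8 (-0.59, SE 0.146, adjusted p = 0.0177), Psmd10 (-0.44, SE 0.0963, adjusted p = 0.0113), Psmd13 (-0.36, SE 0.097, adjusted p = 0.0268) and Psme4 (-0.45, adjusted p = 0.0755). Higher were Psmd11 (0.30, adjusted p = 0.0517), Psmd14 (0.29, adjusted p = 0.0478) and Psma3 (0.26, adjusted p = 0.0916). No immune or standard beta subunit was called, though Psmb7 (-0.23, adjusted p = 0.0429) fell short in fold alone. With the control level as a covariate 1 subunit was called. With the tPA group coded as not anesthetised, Psmd10, Psmd13, Psme4, Psmd11 and Psma3 lost the call.

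With stroke, both PA28 subunits, Psma5, Psma7, Psmd10 and Psmd14 were called lower under either coding of anesthesia in the tPA group. Without tPA, neither PA28 subunit was called in reperfused-MCAO or permanent-MCAO against anesthesia. The Psme2 mean was 11.37 in tPA rats, 10.80 in reperfused-MCAO+tPA rats and 10.62 in permanent-MCAO+tPA rats. For Psmd10 the means of these groups were 7.54, 7.62 and 7.70, so it was not lower with MCAO among tPA-treated rats. The stroke effect, averaged over rats with and without tPA, called 13 subunits (33.3%), 10 lower and 3 higher, against 15.4% of all probe sets (6.02% higher and 9.39% lower) and 31.1% of those not dim (1656 higher and 2464 lower of 13232), a share near that background. Of the 39 differences 34 were negative, with a median of -0.18 against 0.0025 over all probe sets and -0.09 over those not dim. Psme2 fell by 0.43 (SE 0.0812, adjusted p = 0.00119, limma), Psme1 by 0.43 (SE 0.0895, adjusted p = 0.00257), Psma7 by 0.32 (SE 0.0628, adjusted p = 0.00156) and Psmd10 by 0.41 (SE 0.0963, adjusted p = 0.00706). Psmb10 (-0.32, adjusted p = 0.0598) and Psmb8 (-0.34, adjusted p = 0.106) met the study thresholds alone, and lost the call with the tPA group coded as not anesthetised. Psma5 (-0.32, adjusted p = 0.0116), Psmd14 (-0.30, adjusted p = 0.0261), Psmb3 (-0.33, adjusted p = 0.0269) and Psmb2 (-0.33, adjusted p = 0.0397) were lower as well. The 3 higher ones were Psmd4 (0.58, adjusted p = 0.0374), Psmd8 (0.35, adjusted p = 0.138) and Psmd9 (0.42, adjusted p = 0.195), which had their lowest group mean in tPA rats. These 3, Psmb2 and Psmb3 lost the call under that coding too. All 10 T cell markers and 1 of 4 B cell markers were called lower in the same comparison. Called higher were 5 of 6 NK and cytotoxic, 5 of 6 platelet, 2 of 8 monocyte and 4 of 10 erythroid markers. Of 10 neutrophil markers 5 were called higher and 1, Lcn2, lower (-1.34). The part of these cell types in the values was not tested.

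Psma7, an alpha subunit, read 9.27, 9.47 and 9.67 in reperfused-MCAO+tPA rats, 9.43, 9.62 and 9.80 in reperfused-MCAO rats, 9.19, 9.48 and 9.68 in permanent-MCAO+tPA rats and 9.31, 9.54 and 9.88 in permanent-MCAO rats. It read 9.81, 9.98 and 10.22 in tPA rats, 9.36, 9.74 and 10.06 in anesthesia rats and 9.74, 9.79 and 9.98 in naive rats. All tPA rats were above all reperfused-MCAO+tPA, reperfused-MCAO and permanent-MCAO+tPA rats, and naive rats were above all rats of both MCAO groups with tPA. Since the stroke effect averages over both arms, it uses tPA rats as a control for the tPA-treated MCAO groups. With the tPA group coded as not anesthetised the stroke count was 8, and a covariate for the control level left 6, among which Psme1, Psme2, Psmb10 and Psmd10 were already called without it.

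Without tPA, MCAO against anesthesia gave fewer calls. In reperfused-MCAO 6.00% of all probe sets were called (1.91% lower). Of the 13232 not dim 13% were called, 1155 higher and 569 lower. Of the 39 subunits 4 (10.3%) were called, all lower. Besides Psmd10 these were Psmd6, a lid subunit (-0.34, SE 0.0605, adjusted p = 0.0218, limma), Psma6 (-0.39, SE 0.0695, adjusted p = 0.0223) and Psma5 (-0.38, SE 0.12, adjusted p = 0.145). Psmd6 read 8.67, 8.84 and 8.92 in reperfused-MCAO rats and 8.95, 9.19 and 9.28 in anesthesia rats, and Psma6 read 11.45, 11.59 and 11.79 in reperfused-MCAO rats and 11.79, 11.98 and 12.14 in anesthesia rats. Neither overlapped, Psma6 narrowly, and with Psmd10 that makes 3 subunits lower without overlap, against 1.09% of all probe sets. Psma5 read 8.22, 8.74 and 8.96 in reperfused-MCAO rats and 8.90, 9.02 and 9.26 in anesthesia rats, with overlap. Of the 39 differences 8 were positive, and the median was -0.12, against -0.02 over all probe sets. The immune subunits were not called, at -0.09 for Psmb8, 0.19 for Psmb9 and -0.11 for Psmb10. Psme1 and Psme2 were not called either, and the differences of the 3 activators ran between -0.51 and -0.16. Of the cell markers, 4 of 6 NK and cytotoxic, 3 of 10 neutrophil and 3 of 8 monocyte markers were called higher and 2 of 10 erythroid markers lower, and their part in these values was not tested. Without anesthesia rat 1, 7 subunits were called.

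In permanent-MCAO against anesthesia, Psmd10 was the 1 subunit called, against 2.78% of all probe sets. The count ran between 1 and 5 when each rat was left out, with 5 without permanent-MCAO rat 1 and 2 without permanent-MCAO rat 5 or any of anesthesia rats 1, 2, 4, 5 and 6. In anesthesia against naive rats, Psmd10 was again the 1 subunit called, against 0.821% of all probe sets. That count was 4 without anesthesia rat 1 and 2 without naive rat 2 or naive rat 6. Neither call passed the adjusted threshold.

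For Psmd6, Psma6, Psma5, Psma1, Psmc2 and Psmd11 the remaining groups were as follows. Psmd6 read 8.72, 8.86 and 9.23 in reperfused-MCAO+tPA rats, 8.71, 8.93 and 9.01 in permanent-MCAO+tPA rats, 8.52, 8.84 and 9.18 in permanent-MCAO rats, 8.90, 9.11 and 9.25 in tPA rats and 8.87, 9.12 and 9.32 in naive rats. Psma6 read 11.53, 11.75 and 11.99 in reperfused-MCAO+tPA rats, 11.20, 11.64 and 11.91 in permanent-MCAO+tPA rats, 11.34, 11.71 and 11.91 in permanent-MCAO rats, 10.60, 11.60 and 11.77 in tPA rats and 11.72, 11.83 and 11.98 in naive rats. For both the anesthesia group had the highest mean. Psma5 read 8.23, 8.91 and 9.06 in reperfused-MCAO+tPA rats, 8.23, 8.47 and 9.26 in permanent-MCAO+tPA rats, 8.67, 8.79 and 8.9996 in permanent-MCAO rats, 8.82, 9.07 and 9.21 in tPA rats and 8.82, 8.96 and 9.19 in naive rats. Psma1 read 9.40, 9.61 and 9.99 in reperfused-MCAO+tPA rats, 9.29, 9.65 and 9.74 in reperfused-MCAO rats, 8.74, 9.75 and 9.998 in permanent-MCAO+tPA rats, 9.38, 9.64 and 9.80 in permanent-MCAO rats and 9.59, 9.90 and 10.21 in naive rats. Naive rats overlapped with tPA rats for Psma5 and Psma1. Psmc2 read 9.55, 9.69 and 9.79 in reperfused-MCAO+tPA rats, 9.47, 9.80 and 10.06 in reperfused-MCAO rats, 9.18, 9.64 and 10.08 in permanent-MCAO+tPA rats, 9.50, 9.74 and 9.90 in permanent-MCAO rats and 9.65, 9.84 and 10.14 in naive rats. Psmd11 read 8.90, 9.07 and 9.26 in reperfused-MCAO+tPA rats, 8.83, 9.25 and 9.52 in reperfused-MCAO rats, 8.41, 9.26 and 9.65 in permanent-MCAO+tPA rats, 8.82, 9.01 and 9.54 in permanent-MCAO rats and 8.96, 9.12 and 9.55 in naive rats. Naive rats reached into the range of tPA rats for both.

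Partners of the proteasome moved in both directions in tPA without MCAO. Of 19 measured assembly factors and partners 1 was called higher and 4 lower. Sem1, a small lid subunit outside the naming rule, fell by 1.11 (adjusted p = 0.0196, limma), Adrm1, a ubiquitin receptor of the regulator, by 0.63 (adjusted p = 0.0173) and Ubqln1, a shuttle for ubiquitinated proteins, by 1.04 (adjusted p = 0.0145). Of 6 ubiquitin and Vcp genes, 1 was called, Ufd1, a cofactor of the segregase Vcp, which fell by 1.25 (adjusted p = 0.0397). Of 9 MHC class I presentation genes, 3 were called higher and none lower. They were Nlrc5, the transactivator of class I genes (0.83, adjusted p = 0.0148), Erap1, which trims peptides (0.73, adjusted p = 0.0215), and the loading chaperone Pdia3 (0.43, adjusted p = 0.0257). Of 15 interferon response genes 2 were called higher, Mx1 (0.76, adjusted p = 0.0133) and Irf9 (0.56, adjusted p = 0.0273), and none lower. Against the 28.7% called of all probe sets not dim, the shares of these lists were 26.3% for assembly factors and partners, 16.7% for ubiquitin and Vcp, 33.3% for MHC class I and 13.3% for interferon, all near or below it. Of the blood cell lists, 9 of 10 T cell markers were called higher and 6 of 10 erythroid and 4 of 6 platelet markers lower.

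Across rats a part of the subunits varied with the same cell markers. The relation of each of the 39 subunits with the mean of the erythroid, T cell and neutrophil lists was computed after the values were seen, 117 relations over 42 arrays with group means removed. They were not run for other probe sets, so no background share stands beside the counts for any list. Against the erythroid mean, 7 subunits had a positive and 15 a negative Pearson's r with a permutation p adjusted over the 117 at most 0.05. The highest were Psmd8 (r = 0.82, rho = 0.82, adjusted permutation p = 9.7e-05 for r) and Psmd9 (r = 0.80, rho = 0.81, adjusted permutation p = 9.7e-05). The lowest were Psmd11 (r = -0.80, rho = -0.78, adjusted permutation p = 9.7e-05) and Psme2 (r = -0.71, rho = -0.70, adjusted permutation p = 9.7e-05). Without the 2 arrays farthest from the median these r were 0.78, 0.81, -0.77 and -0.63. Over all 42 arrays with the control level removed they were 0.46, 0.60, -0.56 and -0.47, and 2 positive and 9 negative relations passed.

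Against the T cell mean 15 subunits were positive and 5 negative. Psme2 (r = 0.75, rho = 0.75, adjusted permutation p = 9.7e-05) and Psmb3 (r = 0.72, rho = 0.79, adjusted permutation p = 9.7e-05) were highest, and Psmd4 (r = -0.68, rho = -0.63, adjusted permutation p = 0.000251) was lowest. Without 2 arrays r was 0.72, 0.69 and -0.59, and with the control level removed it was 0.65, 0.64 and -0.52, with 11 positive and 2 negative relations passing. The neutrophil mean had 2 positive relations, with Psmb1 (r = 0.44, rho = 0.43, adjusted permutation p = 0.012) and Psmb4 (r = 0.44, rho = 0.42, adjusted permutation p = 0.0209), and 1 negative, with Psmd5 (r = -0.40, rho = -0.38, adjusted permutation p = 0.0408). Without 2 arrays these r were 0.41, 0.39 and -0.34. With the control level removed they were 0.40, 0.45 and -0.42, and 3 positive and 1 negative relations passed. The added one was Psmb9 (r = 0.45, adjusted permutation p = 0.0454), which missed without that removal (r = 0.34, adjusted permutation p = 0.129). The immune subunits were negative against the erythroid mean, at -0.51 for Psmb8, -0.56 for Psmb9 and -0.40 for Psmb10 (adjusted permutation p = 0.00234, 0.000455 and 0.0209), and at -0.51, -0.57 and -0.64 with the control level removed. Against the T cell mean Psmb10 passed (r = 0.54, adjusted permutation p = 0.0312), with rho = 0.51 (adjusted permutation p = 0.0103) and r = 0.54 without 2 arrays. Psmb8 missed by r (0.37, adjusted permutation p = 0.118) and passed by rho (0.51, adjusted permutation p = 0.00815), with r = 0.55 without 2 arrays. Psmb9 missed by both (r = 0.39, adjusted permutation p = 0.129, rho = 0.40, adjusted permutation p = 0.0531), with r = 0.37 without 2 arrays. With the control level removed r was 0.57 for Psmb10, 0.26 for Psmb8 and 0.27 for Psmb9 (adjusted permutation p = 0.0259, 0.426 and 0.424).

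**Figure D5:**
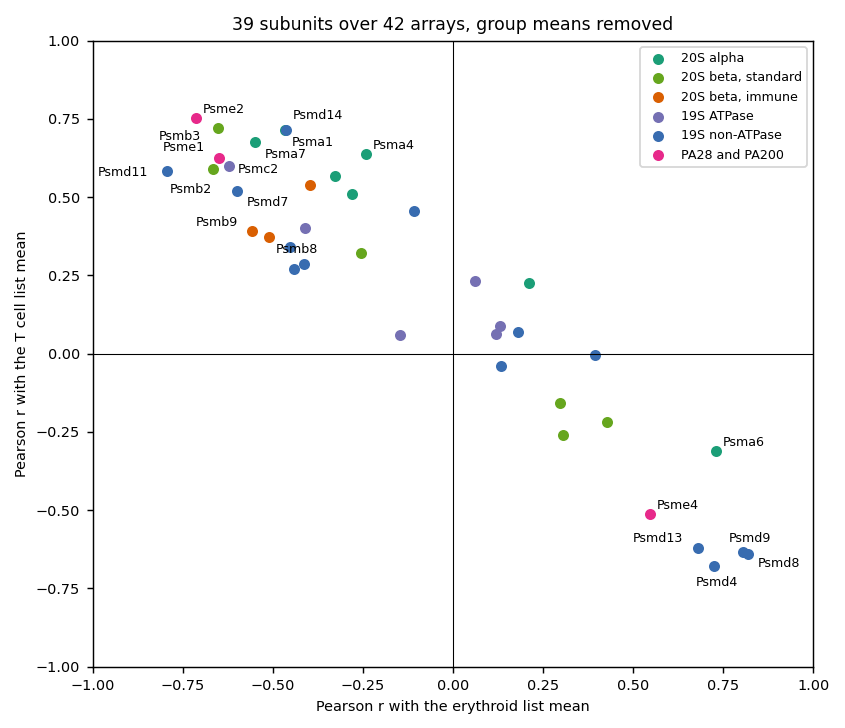
Pearson's r of each of the 39 subunits with the mean of the erythroid markers (horizontal axis) and with the mean of the T cell markers (vertical axis) over 42 arrays with group means removed, coloured by class. Psmd4, Psmd8, Psmd9 and Psmd13 lie at the lower right and Psme2, Psmb3 and Psmd11 at the upper left.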

How the data were processed

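Blood RNA was collected in PAXgene tubes, amplified and hybridized to rat Affymetrix arrays, 1 array per rat. The authors deposited GC-RMA normalized log2 signals made in Partek. GC-RMA subtracts background by probe sequence and equalizes arrays by quantiles, so a shift shared by most probe sets is removed. Depth has no meaning for arrays, and 6 rats a group limit the precision. Columns were matched to groups by sample title. limma 3.58.1 in R 4.3.3 was fitted to 31042 probe sets, and controls were left out. The model over 42 arrays held tPA, stroke, their interaction and anesthesia, and the other comparisons held the groups concerned. The fitting code was tested on simulated data. Alternatives were a replicate block, the hybridization control level as a covariate, median centring, quantile normalization, a filter at log2 4, the methods' ANOVA, the mean over probe sets, another anesthesia coding and leaving out each rat. The marker relations and the fit without 2 tPA rats were added after the values were seen. Group levels are given for the immune subunits, Psmb5, Psmb7, Psme1, Psme2 and up to 4 called members of smallest p in each comparison. Other called members have their difference and adjusted p, or for interaction calls that missed the adjusted threshold their name and direction. Up to 3 called genes of smallest p were named from each other list in a comparison. Members named beyond this rule were chosen after their values were seen. The members and lists were chosen with earlier results of these data known. Same-numbered rats of different groups correlated between -0.331 and 0.348 after removal of group means. Rats of different numbers were not compared in this way, so the range does not decide whether the numbers pair rats. The sources used do not say whether rats of a group were littermates. Of the 39 subunits 16 have copies or pseudogenes named in the GRCr8 gene table, whose signal cannot be separated. Promoters were searched in Python 3.11.15.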

Additional observations from a re-analysis of the deposited data

Results flagged for a closer look

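Of 133 groups of 6 rats (19 named genes in 7 groups), 5 held a rat far from the others by Dixon's gap, and chance gives about 1 in 20. Psma1 read 9.29 in reperfused-MCAO rat 3, with the nearest rat at 9.65, and 9.44 in anesthesia rat 5, with the nearest at 9.68. Psma6 read 10.60 in tPA rat 2, with the nearest at 11.33. Psmd11 read 10.003 in the same rat, with the nearest at 9.61. That rat had the lowest control level of the series, 9.72, and the lowest erythroid mean, 8.57, and their part in these values was not tested. Psmb9 read 8.72 in reperfused-MCAO+tPA rat 3, with the nearest at 9.22.

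The effect of tPA differed between rats with and without MCAO for 9 subunits by the interaction in limma over 42 arrays (adjusted p at most 0.05), against 9.47% of all probe sets, or 2378 of the 13232 not dim. The term was 1.05 for Psmd10, 1.23 for Psmd8, 1.49 for Psmd9 and 0.58 for Psma6. It was -0.51 for Psmc2, -0.64 for Psmc1, -0.68 for Psmd11, -0.65 for Psmb3 and -0.62 for Psmb9. None of the 9 passed the adjusted threshold with the control level as a covariate.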

How the results depend on the processing

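With the hybridization control level as a covariate the number of subunits called was 1 for the tPA effect, 6 for stroke, 3 for the interaction, 2 for tPA in reperfused-MCAO, 1 for tPA without MCAO, 2 for permanent-MCAO against anesthesia, 0 for anesthesia against naive and 1 for the difference between the kinds of MCAO. The interaction terms of Psmd13 (-0.075) and Psmd4 (-0.12) changed sign there. In that fit 14 of the 64 subunit calls over all comparisons kept direction and call, 48 lost the call and these 2 changed sign. With the tPA group coded as not anesthetised the counts were 5 for tPA and 8 for stroke. For tPA in reperfused-MCAO the count was 0 with median centring, the filter at log2 4 and the methods' ANOVA. Quantile normalization called 1 subunit for the difference between the kinds of MCAO. Removal of the control level brought r of Psmb10 and Psmb7 to 0.44. The cause was not tested for any of these. Over all probe sets 2939 passed the adjusted threshold for the interaction, and 13137 with median centring.

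Leaving out 1 rat gave 7 to 10 calls for the tPA effect, 11 to 15 for stroke, 14 to 20 for the interaction, 0 to 1 for tPA in reperfused-MCAO, 12 to 16 for tPA without MCAO, 3 to 7 for reperfused-MCAO against anesthesia, 1 to 5 for permanent-MCAO against anesthesia, 1 to 4 for anesthesia against naive and 0 to 1 for the difference between the kinds of MCAO. That last 1 came without reperfused-MCAO+tPA rat 1, permanent-MCAO rat 3 or permanent-MCAO+tPA rat 6. Of 2503 values of called subunits over all settings, 2242 kept direction and call, 259 lost the call and 2 reversed.

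With the replicate number as a block, which the labels do not show to pair rats, the counts were 9 for the tPA effect, 13 for stroke, 17 for the interaction, 1 for tPA in reperfused-MCAO, 3 for tPA in permanent-MCAO (0 without it), 12 for tPA without MCAO, 3 for reperfused-MCAO and 1 for permanent-MCAO against anesthesia, 1 for anesthesia against naive and 0 for the difference between the kinds of MCAO.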
